A study of Mus musculus with 4 samples.

Results

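Platelet-derived growth factors (PDGFs) and their receptors were measured in adipocyte progenitors, cells that give rise to fat cells, from wild-type and Adamts1 transgenic mice. The PDGF genes were taken by name and comprise the 4 ligand genes Pdgfa, Pdgfb, Pdgfc and Pdgfd, the 2 receptor genes Pdgfra and Pdgfrb, and the receptor-like gene Pdgfrl. The 7 genes had 9 of the 55681 probes on the array, and each gene had a probe among the 24518 features (genes or unnamed array targets) that were tested.

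All mice were male, of the FVB strain and 4 weeks old, and carried no treatment. The progenitors were sorted by flow cytometry from subcutaneous fat and lysed without culture, so the RNA is that of freshly isolated cells. The 2 wild-type samples carried no transgene, and the 2 transgenic samples carried one for Adamts1, which encodes a secreted metalloprotease that cuts matrix proteoglycans. Each sample was hybridised to 1 single-colour Agilent array. The labels leave out which promoter drives the transgene, in which cells it is active and which surface markers served for the sort, and they do not say whether a sample is 1 animal or a pool. Nothing in them says that replicates are separate animals, so a p-value here measures the spread between these samples, which may be technical.

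PDGF ligands are secreted as disulphide-linked dimers and bring 2 receptor chains together, whose tyrosine kinase domains then phosphorylate each other and recruit signalling proteins. PDGF-A and PDGF-C act through receptor alpha, PDGF-B through both receptors, and PDGF-D mainly through receptor beta. PDGF-C and PDGF-D carry an extra CUB domain and stay inactive until extracellular proteases remove it. In fat, receptor alpha marks adipocyte progenitors, and receptor beta is best known from the mural cells that wrap small vessels and is also found on progenitors.

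The arrays showed 47.0% to 57.0% of their spots well above background, with wild-type array 1 the lowest and the other 3 arrays at 55.5% or more. The 75th percentile of the signal, which served to scale the arrays, was 239 on wild-type array 1 and 333 to 354 on the others. The SD of the log2 difference between the wild-type arrays was 0.577, against 0.345 between the transgenic arrays. Adamts1 itself was at 6.65 and 6.73 in wild-type against 6.77 and 6.82 in transgenic samples on the normalised log2 scale, a difference of 0.11 ± 0.09 SE that was not called (adjusted p = 0.573), and no source used here tells whether its probe lies inside the transgene. Of 18 listed markers of adipocyte progenitors, 17 were on the array by name and all of these were tested, Cd34 between 8.27 and 8.76 and Ly6a between 7.67 and 8.22 among them.

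Of the 7 PDGF genes, 1 passed the test across all features: Pdgfc fell. The test was limma's moderated test, and a gene was called at an adjusted p under 0.05 after Benjamini-Hochberg adjustment over all features tested. The background of such calls was 1.73% of features in either direction, 0.759% lower and 0.967% higher in the transgenic samples. The other 6 genes were not called. At an unadjusted p under 0.05 there were 5 of the 7, against 4660 of all features, or 19.0%. The 2 groups did not overlap for 5 of the 7 genes, where 53.1% of all features had groups that did not overlap. Of these 5, Pdgfb and Pdgfrb were higher and Pdgfc, Pdgfd and Pdgfrl lower in both transgenic samples, while Pdgfa and Pdgfra overlapped. Over all features the median difference was -0.016 and the median SE 0.177, both on the log2 scale.

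**Figure D1:**
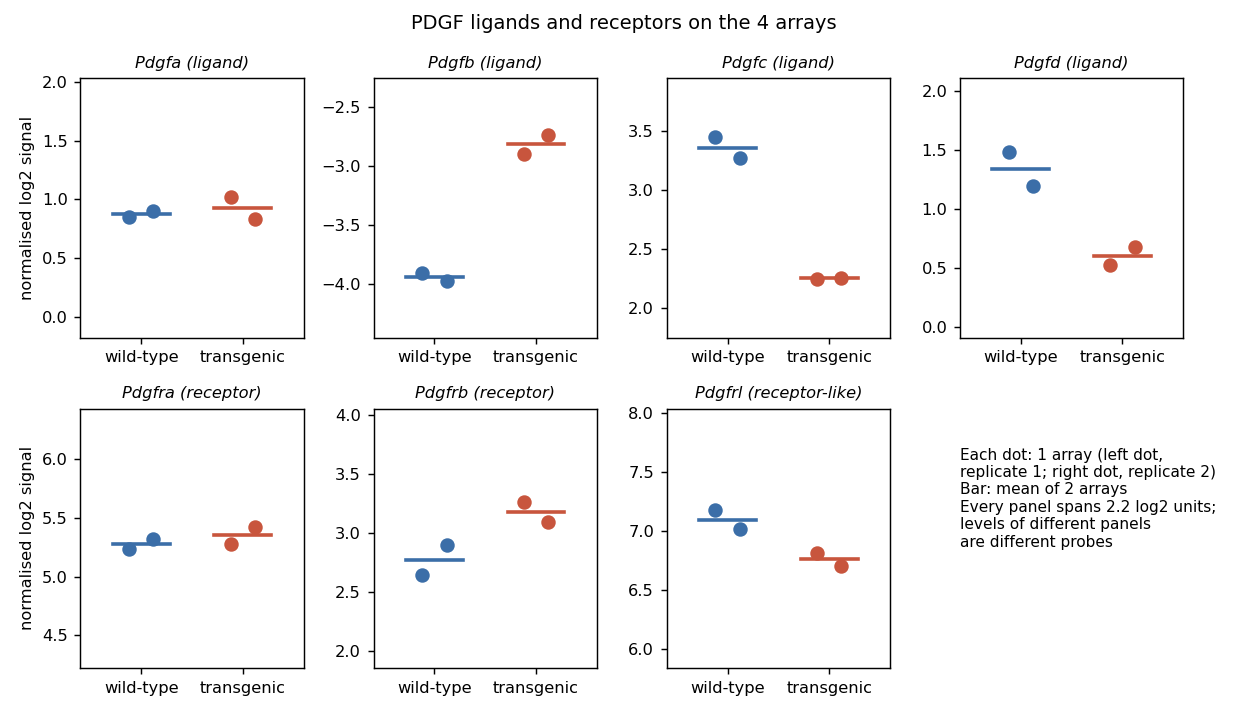
Normalised log2 signal of the 7 PDGF genes, 1 panel a gene, in the 2 wild-type (left in each panel) and 2 transgenic arrays (right), with each dot an array and each bar the mean of 2 arrays. Every panel spans the same log2 distance, and the gap between groups is widest for Pdgfb (higher in the transgenic samples) and Pdgfc (lower), while the dots of Pdgfa and Pdgfra overlap between groups.

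Pdgfc, which encodes a latent ligand of receptor alpha, was read by 1 probe of 60 bases. It lies at chr3:81017572-81017631 on the plus strand of the mm9 build, as the files give it. Exon and UTR annotation on that build was not used here. The first 30 bases of the probe are shown because this spot carries the called difference.
Pdgfc probe: aaatatggagccattgctaacctacccctt
The processed signal of Pdgfc was 2609 and 3225 on the wild-type arrays and 1681 and 1669 on the transgenic arrays. Scaled to each array's 75th percentile, Pdgfc read 3.45 and 3.27 in wild-type against 2.25 and 2.25 in transgenic samples on the normalised log2 scale. Both transgenic samples lay below both wild-type samples, and they lay closer together (SD 0.0038) than the wild-type samples did (SD 0.12). Pdgfc was 2.16-fold lower in the transgenic samples (95% interval 1.82 to 2.56, n = 2 per group), a log2 difference of -1.11 ± 0.10 SE with an adjusted p = 0.0227. Of all features tested, 364, or 1.48%, had a lower difference than Pdgfc. The cells were measured in bulk, so fewer cells that express a gene and less RNA per cell cannot be told apart.

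The call of Pdgfc was made in 13 of 14 other settings with all arrays. It was lost without an intensity trend in the variance model (adjusted p = 0.0924), without transgenic array 1 (adjusted p = 0.0629) and without transgenic array 2 (adjusted p = 0.0524), at a difference of -1.11 each time. Adipocyte progenitor markers had a median difference of the same sign as Pdgfc, at -0.33. Of the 17 tested, 3 fell and 14 were not called. Those that fell were the surface protein Cd24a (log2 difference -1.58 ± 0.11), Pi16, a marker of early progenitors in the connective tissue of fat (-1.16 ± 0.15), and the transcription factor Ebf2 (-0.73 ± 0.08). The summed level of the 17, in units of each array's 75th percentile, was 4502 to 5492 in the wild-type and 3789 to 3825 in the transgenic samples. Of the 17, 12 were lower and 5 higher in the transgenic samples without overlap, where 53.1% of all features did not overlap. The 5 were Thy1 (0.61 ± 0.12, adjusted p = 0.0821), Lum, Icam1, Dlk1 and Pdgfrb, which stands in this list too. None of these 5 was called. Mature adipocyte markers had a median of the opposite sign, 1.57, with 3 of 13 tested called higher. Of the 13, 2 entered the test through the transgenic arrays alone. Their summed level was 303 to 309 in the wild-type against 525 to 542 in the transgenic samples. Most of it was Lpl, at 8.07 and 8.03 against 8.63 and 8.64, which was not called (adjusted p = 0.0707). Lep and Cidec were not well above background. The part of progenitors and adipocytes in the difference of Pdgfc was not tested.

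Pdgfd, the latent ligand of receptor beta, had the larger of the 2 remaining negative differences among the PDGF genes. Its probe lies at chr9:6376926-6376985 on the plus strand of mm9, and its first 30 bases follow for comparison with that of Pdgfc, the other CUB-domain ligand.
Pdgfd probe: gaaggggcaaagctaagaatatggctcttg
The processed signal of Pdgfd was 670 and 764 on the wild-type arrays and 510 and 558 on the transgenic arrays. Its normalised log2 signal was 1.49 and 1.20 in wild-type against 0.53 and 0.67 in transgenic samples. Both transgenic samples lay below both wild-type samples. The difference was -0.74 ± 0.14 SE, which is 1.67-fold lower with a 95% interval of 1.31 to 2.13, and it did not pass the test (adjusted p = 0.0771). Of all features, 3.87% had a lower difference. Pdgfd was called with normexp background correction (-0.65, adjusted p = 0.0495) and with no filter on dim probes (adjusted p = 0.0466). Without wild-type array 2 the difference of Pdgfd was -0.89. The progenitor and adipocyte marker values given for Pdgfc stand beside Pdgfd as well, and their part in its difference was not tested.

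The 250 bases before the transcription start of Pdgfc and of Pdgfd are shown because these were the ligand genes lower in both transgenic samples. They come from the RefSeq promoter table of GRCm38.p6, which holds 4 of the 7 PDGF genes (Pdgfa, Pdgfc, Pdgfd and Pdgfra). Capitals mark matches to 6 motifs searched on both strands: GGGCGG (the GC box), CCAAT (the CCAAT box), TATAAA (the TATA box), TGACTCA (the AP-1 site), TGACGTCA (the cyclic AMP response element) and CACGTG (the E-box).
Pdgfc, chr3:81036166-81036415, plus strand: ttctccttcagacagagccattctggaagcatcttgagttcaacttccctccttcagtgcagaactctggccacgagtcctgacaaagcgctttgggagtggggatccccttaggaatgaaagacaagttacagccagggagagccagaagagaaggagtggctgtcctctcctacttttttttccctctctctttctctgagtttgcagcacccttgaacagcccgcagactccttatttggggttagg
Pdgfd, chr9:6168236-6168485, plus strand: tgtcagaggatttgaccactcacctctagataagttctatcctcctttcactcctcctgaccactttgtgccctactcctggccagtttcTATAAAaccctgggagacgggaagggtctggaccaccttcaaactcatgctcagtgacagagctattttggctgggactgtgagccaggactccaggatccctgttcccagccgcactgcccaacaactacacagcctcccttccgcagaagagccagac
The Pdgfc window held no match to the 6 motifs. The Pdgfd window held 1 match to TATAAA, whose first base lies 160 bases before the start, and 12.4% of the 32851 windows in the table hold such a match. Their GC content was 50.8% for Pdgfc and 53.6% for Pdgfd, near the median of 52.4% over all windows. Both Pdgfa windows were richer in GC, at 66.4% and 72.4%, and held GGGCGG at 60 bases before the start in the first and at 93 and 86 bases in the second, where 32.7% of all windows hold it. The Pdgfra window (GC 54.4%) held no match. The other shares of all windows were 33.8% for CCAAT, 4.46% for TGACTCA, 1.55% for TGACGTCA and 6.02% for CACGTG. A match describes the letters alone.

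Pdgfb, the ligand of both receptors that endothelial cells and platelets are known to release, was near the detection limit. It had 2 probes, which lie 1062 bases apart in the transcript and share no run of over 5 bases. Both are on the minus strand of chromosome 15 in mm9, at chr15:79826376-79826435 for the probe used and chr15:79827438-79827497 for the dim probe. Their first 30 bases are shown because the 2 probes differed in whether they gave a signal at all.
Pdgfb probe used: gttccttctgcttccttcagtttgtaaagt
Pdgfb dim probe: actccaggctgcaggcttctcttgactcca
The dim probe was well above background on 0 of 4 arrays, with processed signals of 2.27 to 4.13. The probe used gave 15.9 and 21.1 on the wild-type arrays and 47.4 and 52.5 on the transgenic arrays, and stood well above background on wild-type array 2 and both transgenic arrays, but not on wild-type array 1. After scaling, Pdgfb was at -3.91 and -3.98 in wild-type against -2.90 and -2.74 in transgenic samples. Pdgfb was thus brighter in both transgenic samples than in either wild-type sample.

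The log2 difference of Pdgfb was 1.13 ± 0.25 SE, or 2.19-fold (95% interval 1.42 to 3.37), and it did not pass the test (adjusted p = 0.104). With the wild-type array 1 value raised to the lowest signal well above background on that array, Pdgfb was 1.96-fold higher. This value is an estimate with its own error and no limit on the difference. Of all features, 3.61% had a higher difference. Normexp correction, which adds an offset of 50 to signals of this size, gave 0.22, and with quantile normalization as well 0.40. Without wild-type array 2 the difference of Pdgfb was 1.09, taken from a lone wild-type value that was not well above background. Markers of cells known to release PDGF-B were read beside it. Of 14 endothelial markers tested, 5 passed the filter through the transgenic arrays alone. Of the 14, 2 rose, Egfl7 (2.08 ± 0.24) and Ptprb (2.73 ± 0.25). The 3 with the highest level were Plvap (0.60 ± 0.19), Kdr (-0.28 ± 0.25) and Tek (-0.51 ± 0.10), none of them called. Without overlap, 9 of the 14 were higher and 2 lower in the transgenic samples, where 53.1% of all features did not overlap. The list's median was 1.34, or 0.82 with bounds, that is with dim wild-type values raised in the same way. The summed endothelial level was 35.0 to 36.6 in the wild-type and 36.9 to 39.5 in the transgenic samples, and Erg was not well above background. This endothelial sum rests mostly on Plvap, Kdr and Tek. Of 17 macrophage and myeloid markers 11 rose (median 2.12, or 2.02 with bounds), 8 of the 17 having passed the filter through the transgenic arrays alone, and Cd163 was not well above background. Their summed level was 57.6 to 58.5 in the wild-type and 65.6 to 67.7 in the transgenic samples. This myeloid sum rests mostly on Itgam, the marker with the highest level. The difference of Itgam was -0.07 ± 0.09 and was not called (adjusted p = 0.708). Of 6 platelet and megakaryocyte markers tested, 2 of them having passed through the transgenic arrays alone, limma called 0, with 2 at an unadjusted p under 0.05 and a median of 0.55, or 0.12 with bounds. The summed platelet level was 5.67 to 5.97 against 7.75 to 7.77, and Ppbp, Gp9, Gp1ba, Gp6 and Tubb1 were not well above background. The part of these cells in the difference of Pdgfb was not tested.

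Pdgfa, the receptor alpha ligand with no CUB domain, had 2 probes that overlap by 51 of their 60 bases and so are not separate readings of the transcript. They lie at chr5:139452934-139452993, the probe used, and chr5:139452925-139452984, on the minus strand of mm9. The processed signal of Pdgfa was 432 and 622 on the wild-type arrays and 718 and 624 on the transgenic arrays. Scaled, it was at 0.85 and 0.90 in wild-type against 1.02 and 0.83 in transgenic samples, and the groups overlapped. The difference was 0.05 ± 0.12 SE (1.04-fold, 95% interval 0.846 to 1.27, adjusted p = 0.843). The interval leaves room for a change of up to 1.27-fold upward. By the other probe the difference of Pdgfa was 0.08 ± 0.13 (adjusted p = 0.780).

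Pdgfra, the receptor that marks adipocyte progenitors, was read by 1 probe printed as 10 spots on each array, at chr5:75593888-75593947 on the plus strand of mm9. The first 30 bases are shown because this gene served as the reference within arrays below.
Pdgfra probe: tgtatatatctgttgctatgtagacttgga
Its processed signal, averaged over the spots, was 8985 and 13275 on the wild-type arrays and 13737 and 14972 on the transgenic arrays, with 1 of the 10 spots dropped as an outlier on wild-type array 1. The log2 SD over the spots of an array was 0.0326 to 0.0515. After scaling, Pdgfra was at 5.23 and 5.32 in wild-type against 5.28 and 5.42 in transgenic samples. The 2 groups overlapped, and the difference of 0.08 ± 0.09 SE (1.05-fold, 95% interval 0.893 to 1.24) was not called (adjusted p = 0.702). The interval excludes a change of the size measured for Pdgfc in either direction.

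Pdgfrb, the receptor for PDGF-B and PDGF-D, was higher in both transgenic samples and did not pass the test. Its processed signal was 1501 and 2495 on the wild-type arrays and 3401 and 2985 on the transgenic arrays. Scaling brought the wild-type samples to 2.65 and 2.90 and the transgenic samples to 3.26 and 3.09 on the log2 scale. The groups did not overlap, and the highest wild-type and the lowest transgenic value lay closer together than the 2 wild-type values did. The difference of Pdgfrb was 0.40 ± 0.12 SE (1.32-fold, 95% interval 1.06 to 1.64, adjusted p = 0.182), and 15.4% of all features had a higher one. Mural cells, the smooth muscle cells and pericytes of vessels, are a known source of Pdgfrb. Of 16 mural markers tested, 3 rose and 1 fell, with a median of 0.31. Those that rose were smooth muscle actin Acta2 (6.14-fold, 2.62 ± 0.14), the receptor Notch3 (3.53-fold, 1.82 ± 0.13) and the pericyte regulator Rgs5 (2.73 ± 0.26). The wild-type arrays did not show Rgs5 well above background, and it was 4.91-fold higher with bounds. The pericyte potassium channel Kcnj8 fell by 1.38 ± 0.18. The summed mural level was 95.4 to 114 in the wild-type and 85.7 to 94.3 in the transgenic samples. This is opposite in direction to the list's median. The sum rests mostly on Anpep, the marker with the highest level, so its direction mostly follows that gene. Anpep was at 6.06 and 6.37 in wild-type against 5.76 and 5.98 in transgenic samples. Its difference of -0.35 ± 0.14 was not called (adjusted p = 0.280). Cnn1 and Lmod1 were not well above background. The part of mural cells in the difference of Pdgfrb was not tested.

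Pdgfrl encodes a receptor-like protein that resembles the outside of the PDGF receptors and has no kinase domain. Its probe, at chr8:42075859-42075918 on the plus strand of mm9, was bright and not saturated, with processed signals of 34530 and 43059 on the wild-type arrays and 39803 and 36398 on the transgenic arrays. The normalised log2 signal of Pdgfrl was 7.17 and 7.01 in wild-type against 6.81 and 6.70 in transgenic samples. The transgenic samples were lower without overlap. The difference of -0.34 ± 0.11 SE (1.26-fold lower, 95% interval 1.05 to 1.52) was not called (adjusted p = 0.194), and 14.3% of all features had a lower one. Quantile normalization gave -0.16, and the fit without wild-type array 2 gave -0.42.

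**Figure D2:**
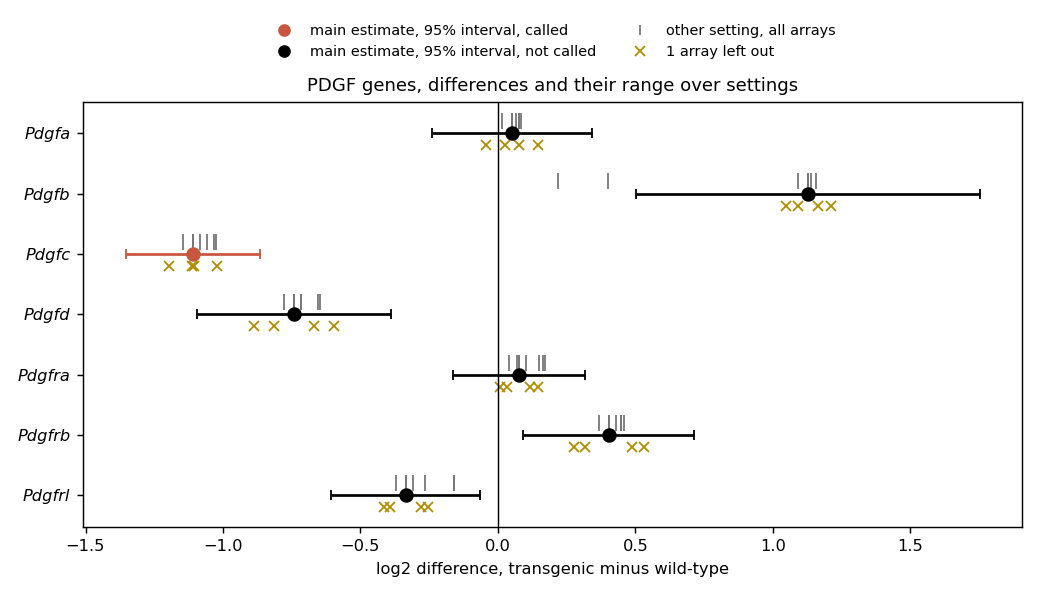
Log2 difference, transgenic minus wild-type, of each PDGF gene, with the 95% interval from limma, grey ticks for the other settings with all arrays and crosses for fits that leave out 1 array. The interval of Pdgfc, at -1.11, is the one called, and the ticks of Pdgfb at 0.22 and 0.40 are the settings with normexp correction.

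The other PDGF genes were also read against Pdgfra on the same array, a difference that no shift between arrays can move. Pdgfc lay 1.78 and 2.04 below Pdgfra in log2 signal on the wild-type arrays and 3.03 and 3.17 below it on the transgenic arrays. The distance thus widened by 2.27-fold, with no overlap between the groups. For Pdgfd the change was 1.76-fold lower and for Pdgfrl 1.33-fold lower, while Pdgfrb was 1.25-fold higher against Pdgfra, each without overlap. Pdgfb did not overlap either, and with its dim wild-type value at the bound it was 1.86-fold higher against Pdgfra. Pdgfa differed by 1.02-fold against Pdgfra, with overlap. In an exact permutation test, 2-sided and over 2 against 2 samples, the smallest p possible is 0.333. The 5 genes without overlap reached this value in the exact permutation test and Pdgfa gave p = 1, so none of the 6 comparisons could pass, before or after adjustment. Such ratios describe unequal differences between genes and do not show that Pdgfra was unchanged.

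The surroundings of the PDGF receptors were described by 5 gene lists. Of their 104 tested genes, 5 of which passed the filter through the transgenic arrays alone, 5 rose and 4 fell. This is 8.65% against 1.73% of all features. The lists were chosen with earlier results of these data known, so the 2 shares are no test of enrichment. Without transgenic array 1, and likewise without transgenic array 2, Arc and Il34 kept their calls and the other 7 genes lost theirs, at adjusted p from 0.0752 to 0.234 over Bgn, Egr2, Pcsk6, Prkca, Sgk1, Spry1 and Zfp36. Zfp36 was also not called without wild-type array 1 (adjusted p = 0.0520).

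Among 17 tested genes that bind or activate PDGFs or serve as co-receptors, 1 rose, 1 fell and 15 were not called, with a median of -0.16. Pcsk6, a proprotein convertase that cuts growth factor precursors, was at 6.57 and 6.50 in wild-type against 5.78 and 5.57 in transgenic samples, and fell by 0.85 ± 0.11 (adjusted p = 0.0380). The matrix proteoglycan biglycan (Bgn) was at 3.58 and 3.93 against 4.77 and 4.84, and rose by 1.05 ± 0.14 (adjusted p = 0.0411). Neither gene overlapped between groups, and with all arrays the call of Pcsk6 was made in 13 and that of Bgn in 10 of 14 other settings. Slc9a3r2, a scaffold protein that binds the receptors' tails, had a difference of 0.95 ± 0.15 (adjusted p = 0.0570). Sparc, a matrix protein that binds PDGF-B, had the highest level of the list and a difference of -0.26 ± 0.16 (adjusted p = 0.424), whose sign turned with quantile normalization. A2m was not well above background.

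Of 33 tested proteins of receptor-proximal signalling, 1 fell and 32 were not called, with a median of -0.060. The one that fell was protein kinase C alpha (Prkca), a kinase downstream of phospholipase C, at 3.74 and 3.60 in the wild-type and 3.04 and 3.07 in the transgenic samples. Its difference of -0.61 ± 0.09 was just past the threshold (adjusted p = 0.0491), and the call was made in 7 of 14 other settings. The adaptor Nck2 (0.46 ± 0.11, adjusted p = 0.129) and the Src family kinase Fyn (-0.40 ± 0.11, adjusted p = 0.147) were next by p. Akt1, the kinase downstream of PI3-kinase, had the highest level of the list and a difference of -0.06 ± 0.08 (adjusted p = 0.708), whose sign turned in 3 scalings. Pik3cb was not well above background.

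Among 18 tested genes of receptor shutdown, 1 rose and 17 were not called, with a median of 0.030, or 0.0098 with bounds. Sprouty 1 (Spry1), an inhibitor of receptor tyrosine kinase signalling, was at 1.95 and 1.94 in wild-type against 2.85 and 2.94 in transgenic samples. It rose by 0.95 ± 0.09 (1.93-fold, adjusted p = 0.0246), and was called in 13 of 14 other settings with all arrays. The receptor phosphatase Ptprj, which removes phosphate from PDGF receptor beta, had a difference of -0.53 ± 0.09 (adjusted p = 0.0687). Ptpn6, a phosphatase of blood cells, was above background on 1 of 2 wild-type arrays. Its difference was 1.42 ± 0.29 (adjusted p = 0.0898), or 2.52-fold higher with bounds. Normexp correction gave Ptpn6 a log2 difference of 0.33, or 0.51 with quantile normalization as well. Socs3, a feedback inhibitor of cytokine receptors, had a difference of -0.21 ± 0.14 (adjusted p = 0.451), and Dusp4 was not well above background.

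Of 24 tested early-response genes, which growth factors such as PDGF induce within a short time, 3 rose, 1 fell and 20 were not called, with a median of -0.10. Arc, an activity-regulated cytoskeletal gene, was at 1.85 and 1.68 in wild-type against 3.71 and 3.13 in transgenic samples, a rise of 1.66 ± 0.20 (3.16-fold, adjusted p = 0.0361). The transcription factor Egr2 was at 2.10 and 1.88 against 2.99 and 3.06, a rise of 1.03 ± 0.11 (2.05-fold, adjusted p = 0.0280). The kinase Sgk1 rose by 0.63 ± 0.09 (adjusted p = 0.0459), and was not called with a median shift (adjusted p = 0.0510). All 3 lay higher in both transgenic samples than in either wild-type sample. Of the 24, 6 were higher and 11 lower in the transgenic samples without overlap, where 53.1% of all features did not overlap. Zfp36, an RNA-binding protein that destabilises mRNAs, fell by 0.62 ± 0.09 (adjusted p = 0.0488), a call made in 9 of 14 other settings. The chemokine Ccl2, with the highest level of the list, had a difference of -0.21 ± 0.11 (adjusted p = 0.375), and Egr3 was not well above background.

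Among 12 tested receptors and ligands of the related class III and VEGF families, 1 fell and 11 were not called, with a median of -0.11. Il34, a ligand of the receptor Csf1r, was at 3.66 and 3.41 in wild-type against 2.14 and 1.83 in transgenic samples. It fell by 1.55 ± 0.15 (2.93-fold lower, adjusted p = 0.0254), and kept its call in each of the 4 fits without 1 array. Csf1, the other ligand of Csf1r, had a difference of -0.08 ± 0.10 (adjusted p = 0.732), whose sign turned in 1 setting with all arrays and in the fit without wild-type array 2, and which was -0.41 as the mean of the gene's probes (adjusted p = 0.0829). Placental growth factor (Pgf) had a difference of -1.10 ± 0.17 (adjusted p = 0.0542). Its receptor Flt1, dim in 1 wild-type sample, had a difference of 2.65 ± 0.54 that was not called (adjusted p = 0.0888). With bounds, Flt1 was 4.16-fold higher, again an estimate and no limit on the difference. Normexp correction gave Flt1 a log2 difference of 1.08, which was called (adjusted p = 0.0344), and without wild-type array 1 it was called at 1.88 (adjusted p = 0.0499). Kit, Flt3 and Flt4 were not well above background.

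**Figure D3:**
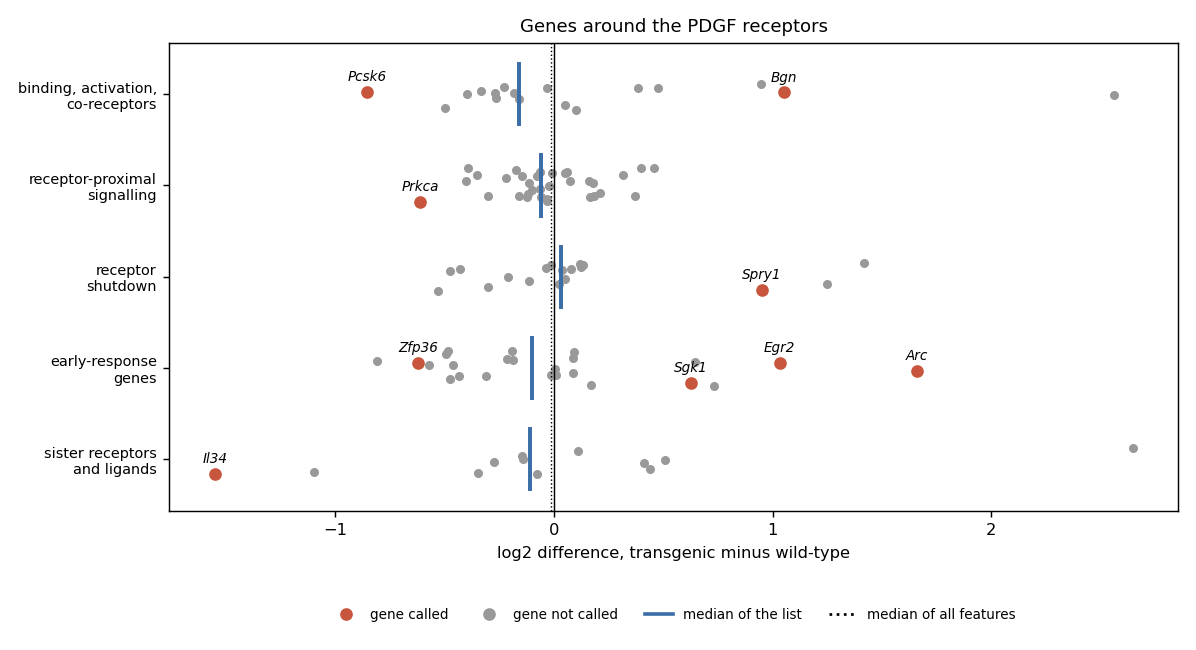
Log2 difference, transgenic minus wild-type, of the 104 tested genes in 5 lists around the PDGF receptors, with called genes in red and named, list medians as blue bars and the median of all features dotted. The list medians lie between -0.16 and 0.030, and the 9 called genes lie on both sides of 0.

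**Figure D4:**
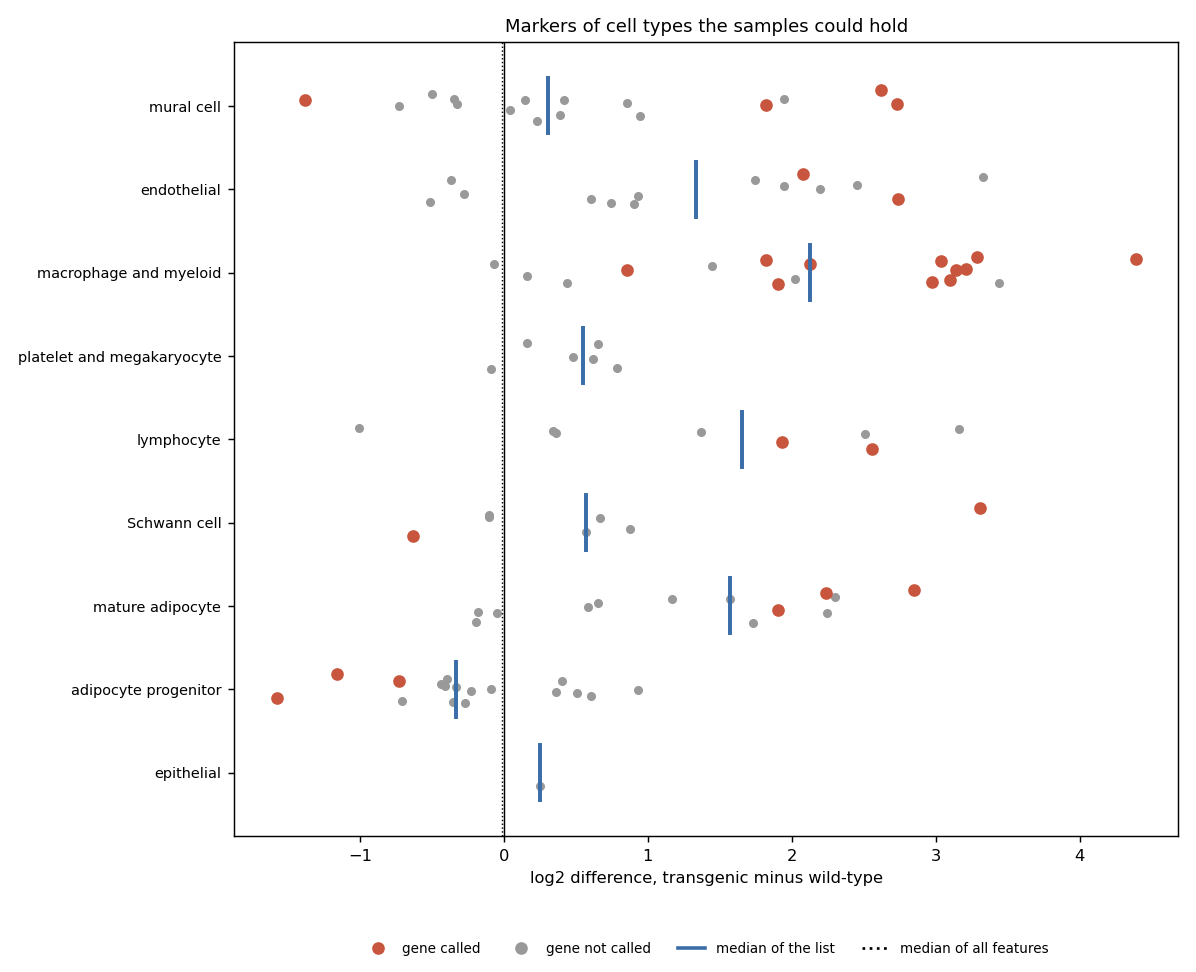
Log2 difference, transgenic minus wild-type, of markers of 9 kinds of cell, with called genes in red, list medians as blue bars and the median of all features dotted. Macrophage and myeloid markers have the highest median, 2.12, and adipocyte progenitor markers a median of -0.33.

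Over the 9 marker lists 99 genes were tested, 25 of them having passed through the transgenic arrays alone, a filter that leans to higher values there. Of the 99, 22 rose and 5 fell, or 27.3%, against 1.73% of all features. These lists too were chosen with earlier results known, so the shares are no test of enrichment. Beside the lists already given, 2 of 8 lymphocyte markers rose, Lck and Cd3d (median 1.65, or 0.99 with bounds), and 3 of the 8, Cd3d among them, passed through the transgenic arrays alone. Cd3e, the lymphocyte marker with the highest mean level, was lower in both transgenic samples (-1.01 ± 0.29) and was not called (adjusted p = 0.162). The summed lymphocyte level was 7.92 to 12.5 in the wild-type and 7.20 to 8.37 in the transgenic samples. Of 7 Schwann cell markers, Ngfr rose and Mbp fell by 0.63 (median 0.57, summed level 8.60 to 9.19 against 12.3 to 13.3). Ngfr was at -1.95 and -0.69 in wild-type against 1.74 and 2.24 in transgenic samples (3.31 ± 0.43, adjusted p = 0.0407), which is 6.40-fold without wild-type array 1 and 15.3-fold without wild-type array 2, and it was not called without transgenic array 2 (adjusted p = 0.0557). Of 7 epithelial markers 6 were not well above background.

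The genes most like each PDGF gene were found by centring each probe on its mean and taking the root mean square (RMS) difference of the log2 values over the 4 arrays. Islr2 was among those most like Pdgfc (RMS 0.0481), and 33 genes lay within 0.1 of it. Islr2 was at 6.71 and 6.62 in wild-type against 5.60 and 5.64 in transgenic samples, and fell by 1.04 ± 0.09 (adjusted p = 0.0227). Those most like Pdgfb were Atp1a4 (0.0443) and Septin11 (0.0470), with 28 genes within 0.1. Pdgfd was nearest to Adap1 (0.0248) and Man1a (0.0273), with 109 genes within 0.1, and Pdgfrb to Slc4a11 (0.0169) and Plpp1 (0.0170), with 354. For Pdgfa (Cnot9 and Wsb1), Pdgfra (Rnf41 and Prdx3) and Pdgfrl (Scrn1 and Zfp958), 1874, 2641 and 1559 genes lay within 0.1. A profile that hardly differed between arrays was thus shared by many genes and those of Pdgfb and Pdgfc by few.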

How the data were processed

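Per the labels' protocols, RNA went through a low-input labelling kit with 1 dye, Cy3. Per the file headers, scans were read by Agilent Feature Extraction 10.7.3.1 (array design 028005, probe positions on mm9), and the authors' deposited processed intensity of a spot has its background subtracted. The authors' deposited value table holds log2 values, and no source used here tells how they were made. Its columns correlated at 0.99981 to 0.99996 with the scaled scanner values centred per probe (column medians 0.193, -0.0209, -0.0454 and 0.0191), so its scale and centring are known from this comparison alone.

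Control and outlier spots were left out, spots averaged per probe, and each array's 75th percentile of log2 intensity subtracted. RefSeq accessions named 26582 probes. Each gene was represented by its brightest probe on average, and tested if this probe stood well above background on both arrays of at least 1 group. Limma 3.58.1 in R 4.3.3 compared the groups, 2-sided, with lmFit and with eBayes on an intensity trend (residual df 2, prior df 3.34), adjusted by Benjamini-Hochberg over 24518 features, after a run on simulated data. With 2 arrays per group their number limits the precision.

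The PDGF genes and gene lists were chosen with earlier results of these data known. Named from each pathway list were its called genes, or the 3 with the smallest p, and the gene with the highest level. Cd34, Ly6a, the called markers, the higher progenitor markers and those not above background were named after their values were seen. Some genes are not reported here. Where a probe was dim on an array, its bound uses the lowest signal well above background there, if this exceeds the probe's signal. Alternatives changed the scaling, background correction, filter, variance model, probe, spot flags, replicates and pairing. No label says that the numbers pair samples. Same-numbered arrays did not deviate together (correlation 0.00317), which cannot exclude a pairing because the noise of single arrays could hide it. All 4 arrays were on 1 slide in 1 scan.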

Additional observations from a re-analysis of the deposited data

How the results depend on the processing

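In limma fits with all arrays, the difference of Pdgfc ran from -1.15 to -1.03 and that of Pdgfd from -0.78 to -0.65. Pdgfb ran from 0.22 to 1.15, Pdgfrb from 0.37 to 0.46, Pdgfrl from -0.37 to -0.16, Pdgfra from 0.04 to 0.17 and Pdgfa from 0.015 to 0.084. Without an intensity trend limma did not call Pdgfc (-1.11, adjusted p = 0.0924), and called 0 of the 7 PDGF genes, 0 of all features and 0 pathway genes in either direction, although 3, 4124 and 28 had an unadjusted p under 0.05. Pdgfd was called with normexp correction (-0.65) and with no filter on dim probes (-0.74), so that 2 PDGF genes were called in each. All features called were 695 with no filter. Pathway genes called higher were 3 with a median shift, and those called lower were 2 with quantile normalization, 2 with normexp and quantile normalization and 2 with the mean of a gene's probes. The share of higher calls was 56.0%, and 49.7% to 65.2% over the scalings.

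Leaving out 1 array moved Pdgfc between -1.20 and -1.02, Pdgfd between -0.89 and -0.60, Pdgfb between 1.05 and 1.21, Pdgfrb between 0.28 and 0.53 (adjusted p 0.0501 to 0.668), Pdgfra between 0.0059 and 0.15, Pdgfrl between -0.42 and -0.26 and Pdgfa between -0.042 and 0.14, with the sign of Pdgfa turned without transgenic array 1. The lone array of a group is then assumed to vary like the intact pair. Calls numbered 0 to 4 PDGF genes, 90 to 3998 features, and 1 to 12 higher and 1 to 18 lower pathway genes, with the most without wild-type array 2 and the fewest features without transgenic array 1. The 0 calls of PDGF genes came without either transgenic array, where 3 had an unadjusted p under 0.05.

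With the replicate number as a block, 774 features and 9 higher pathway genes were called. Pdgfc kept its call (adjusted p = 0.0103) and the other 6 PDGF genes were not called. A block for slide or scan could not be fitted.

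Of 21 pathway genes over these settings, 3 turned sign. Akt1 was 0.011 with quantile normalization, 0.0020 with normexp correction and 0.015 with both. Csf1 was 0.0019 with both, -0.41 with the mean of its probes, and ran from -0.18 to 0.025 with 1 array left out, the highest without wild-type array 2, and Sparc 0.068 with quantile normalization and 0.25 with both. The causes were not tested.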
